A study of Rattus norvegicus with 44 samples.

Results

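Infarct core of rat cortex was compared with the ipsilateral cortex of sham-operated rats 3 d after surgery, the control that shares the operation and the survival time. The comparison rests on 8 of the 44 arrays analysed here, 4 from core and 4 from sham, chosen by their labels for area, time and treatment, and it was made across the 12085 genes that passed the filters. All rats were adult Sprague-Dawley rats. In the ischemic rats the right middle cerebral artery was ligated permanently through a small craniotomy, with both carotid arteries closed for 60 min (the 3VO model, named for the 3 vessels occluded). Sham rats went through the same operation without the infarct. Each array carried RNA pooled from 3 rats, numbered here by pool, with core from pools 9, 10, 11 and 12 and sham from pools 13, 14, 15 and 16. The model is a cortical infarct with no reperfusion of the ligated vessel, and a pool hides the spread between its rats. Core and sham cortex at 24 h (pools 1 to 4 and 5 to 8) and periinfarct cortex at 3 d, the rim around the core from the rats of pools 9 to 12, served for comparison.

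When a cerebral artery is closed for good, neurons of its territory die, and the dead tissue is then cleared. Resident microglia and blood monocytes that turn into macrophages take up debris and lipid, neutrophils and lymphocytes enter from the vessels, astrocytes at the border become reactive, and fibroblasts and vessel cells begin to lay down matrix. A piece of core at 3 d can therefore hold another mix of cells than sham cortex, which was not measured here. In such bulk RNA, fewer cells of a type cannot be told apart from less RNA per cell, and more cells cannot be told apart from more RNA per cell.

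Values are log2 normalized signals, and a gene is represented by its brightest tested probe. A gene was called when its Benjamini-Hochberg adjusted p from limma was below 0.05 and its difference at least 2-fold. Folds divide core by sham, and decreases therefore read below 1. Levels of different genes come from different probes and are not compared with each other. Core arrays had correlations of 0.949 to 0.979 with each other over all probes tested. Core pool 11 stood closest to sham, with correlations of 0.936 to 0.955 to the sham arrays, against 0.884 to 0.928 for the other core arrays. Between 62.5% and 77.7% of the spots of an array were well above background. Sham ipsilateral cortex at 3 d and healthy ipsilateral cortex at baseline did not differ in any call: limma gave 0 of 30516 probes, with 249 at an unadjusted p below 0.05. The absence of calls does not show that the 2 are alike. The paper counts some genes with an adjusted p below 0.05 between sham-operated and healthy rats.

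At 3 d, 1899 of 12085 genes were higher in core (15.7%) and 1233 were lower (10.2%). In probes the counts were 3624 of 30516 higher (11.9%) and 3243 lower (10.6%). Increases went further than decreases. At least 4-fold differences were seen in 846 called genes that rose and 41 that fell, and 189 rose at least 16-fold while 0 fell as far. The median log2 difference of all genes was −0.17. Of the 3132 called genes, 2653 had no overlap between the 4 core and the 4 sham arrays, as did 4555 of all 12085 genes. Leaving out core pool 11 and sham pool 15 raised the number of called genes to 4195, and leaving out core pools 10 and 12, which were high in blood and choroid plexus transcripts, left 2481. The only slide with arrays of both groups held core pool 9 and sham pool 14, and there 6845 of the 6867 called probes had the same sign as in the fit (99.7%). These arrays took part in the fit that chose the probes, so the share is a description and not a check of slide.

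The lists of genes below show which groups moved. Lists of myeloid cells, phagocytosis, antigen presentation and cell division lay far to the side of core, and lists of synaptic and neuronal genes to the side of sham. Oligodendrocyte, endothelial and blood-brain barrier lists had shares of calls near or below those of all genes (15.7% higher and 10.2% lower).

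**Figure D1:**
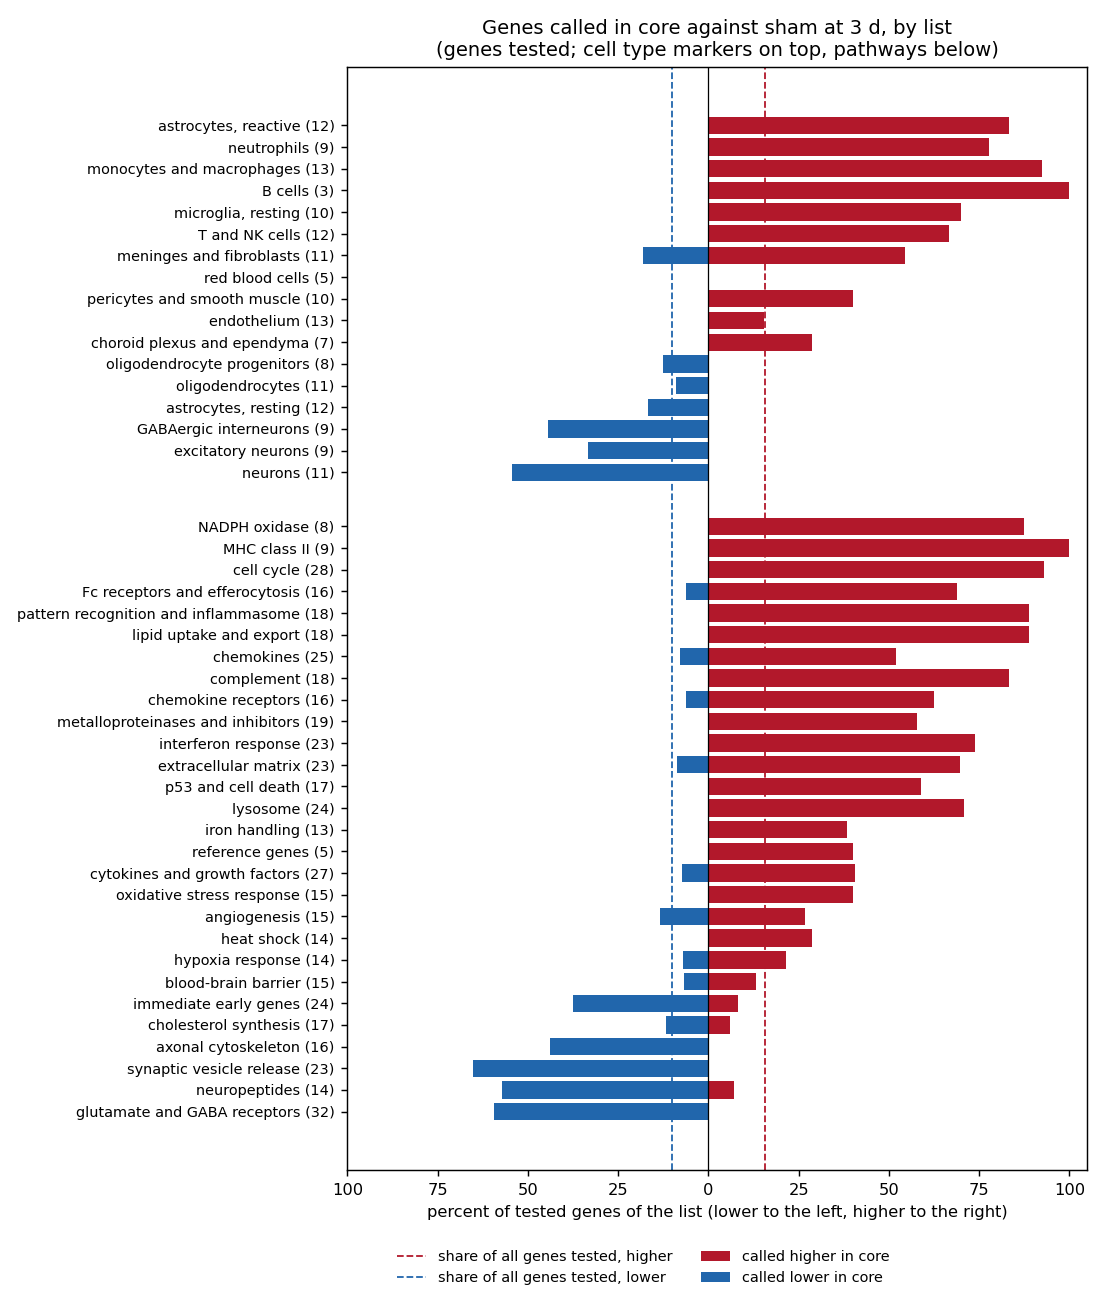
Percent of the tested genes of each list that were called higher in core (right, red) or lower in core (left, blue) against sham at 3 d, with the number of genes tested in parentheses. The dashed lines give the shares over all 12085 genes, 15.7% higher and 10.2% lower, against which each bar is read.

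Large changes were picked among called genes well above background on all 8 arrays whose core and sham arrays do not overlap. The 12 largest increases by these conditions were in Spp1, Ccl2, Hk3, Fcnb, Igsf7 l1, Lgals3, Gpnmb, Slpi, Slamf9, Cd300c2, Cd68 and Igsf6. Most of these genes are known from macrophages and other myeloid cells. Spp1, which encodes the secreted phosphoprotein osteopontin, read 16.66, 16.57, 16.24 and 16.07 in core and 5.19, 5.64, 8.04 and 8.06 in sham, here and below in the order of the pools. The core arrays lay close together while the sham arrays split into a lower and a higher pair, and the fitted difference was 802-fold (log2 9.65, SE 1.0, adjusted p = 2.07e-09). Ccl2, the chemokine that draws monocytes, read 12.51, 12.41, 11.31 and 12.42 in core and 3.25, 3.63, 7.04 and 6.15 in sham, a 142-fold increase (adjusted p = 1.29e-06). Its sham arrays also fell into a low and a high pair. Cd68, a lysosomal glycoprotein of macrophages, read 13.92, 13.83, 12.31 and 13.56 in core against 7.15, 6.83, 8.09 and 7.78 in sham, and rose 61.7-fold (adjusted p = 1.83e-10). Gpnmb, a membrane glycoprotein of phagocytes, rose 99.1-fold and Lgals3, which encodes galectin-3, 113-fold. Core pool 11 was the lowest core array for all of these genes except Spp1.

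The 12 largest decreases, picked by the same conditions, were smaller and reached 0.111 of sham. They were in Tnnc2, Arc, RGD1564127, Nr4a1, Cml3, Egr4, Lamp5, Alb, Crh, Col11a2, Slc25a18 and Rnd1. Tnnc2, the fast skeletal troponin C, read 6.86, 7.25, 9.37 and 8.47 in core and 10.79, 11.19, 11.68 and 10.95 in sham (adjusted p = 8.67e-09). Arc, a synaptic gene switched on by neuronal activity, read 9.18, 9.90, 11.65 and 10.97 in core and 13.70, 13.57, 13.13 and 13.04 in sham, and fell to 0.131 of sham (log2 −2.94, SE 0.54, adjusted p = 2.8e-05). Crh, the neuropeptide corticotropin-releasing hormone, read 4.63, 4.72, 6.38 and 4.75 against 7.28, 7.42, 6.95 and 7.51. Crh (log2 −0.93) and RGD1564127 (−0.97) did not reach 2-fold with normexp correction. Slc25a18, a mitochondrial glutamate carrier, fell to 0.228 of sham, and Lamp5, a membrane protein of neurons, to 0.183. Core pool 11 was the highest core array for all of these genes except Rnd1, so the array nearest to sham in its correlations was also nearest to sham in these genes.

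**Figure D2:**
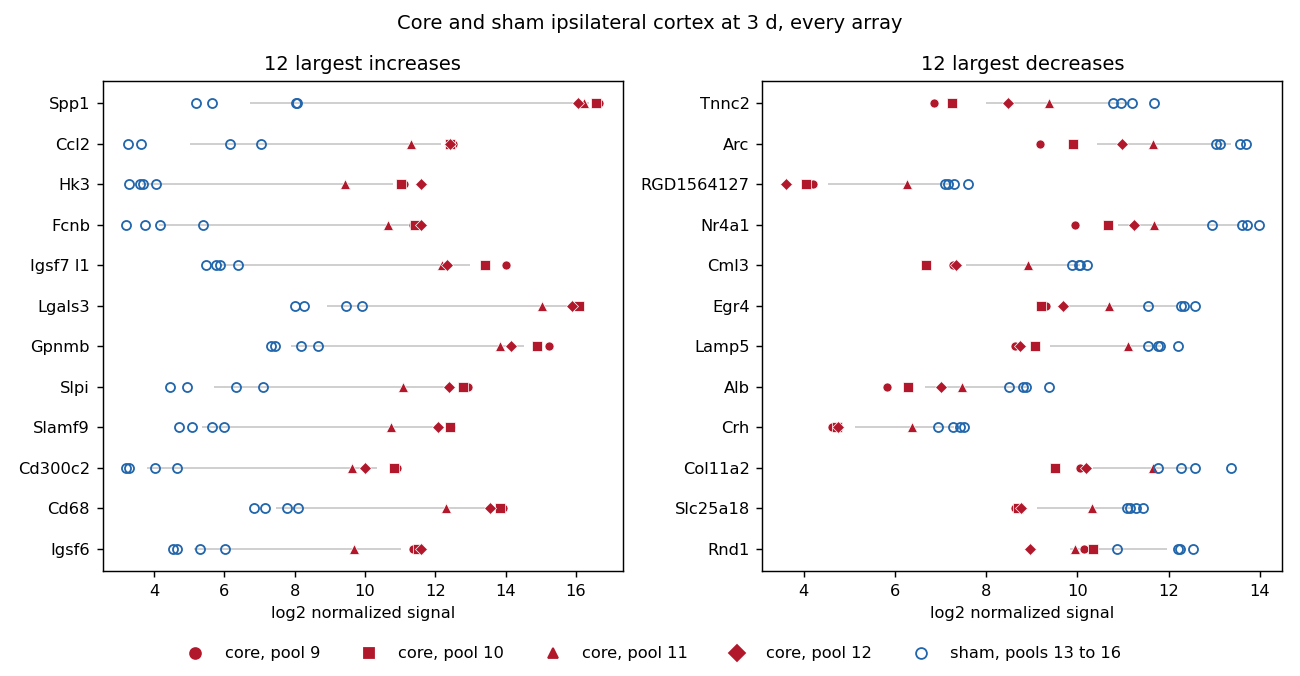
Log2 normalized signal on every core array (red, 1 symbol per pool) and every sham array (blue circles) at 3 d for the 12 genes with the largest increases and the 12 with the largest decreases, with a grey line between the group means. The 24 genes were picked among called genes whose core and sham arrays do not overlap, so the gap between the groups follows from the choice. Core pool 11 (triangles) lies nearest to sham for most of them.

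Other genes were near or below background on one side. Their fold is given as a bound, with the dimmer group set no lower than the lowest well-detected signal of each array. Among called genes, 307 were of this kind. The bounds hold for the background correction used here and are not guaranteed minima. With normexp correction, Cd79b (log2 0.12), Ccr2 (0.23), Cd2 (0.34), Atp6v0d2 (0.75) and RT1-Ba (0.94), given below as bounds, did not reach 2-fold. Cd8a, Fabp4, Mmp7, Mmp12 and Lilrb4 kept their calls. Cd8a, a coreceptor of cytotoxic T cells that some myeloid cells of the rat also carry, read 9.97, 9.31, 8.16 and 8.28 in core and between 0.63 and 2.21 in sham, where it was well above background on no array. It rose at least 83.7-fold. Fabp4, a fatty acid carrier of macrophages and fat cells, rose at least 85.6-fold, the matrix-degrading proteases Mmp7 and Mmp12 at least 49.8-fold and 43.8-fold, and the inhibitory receptor Lilrb4 at least 27.1-fold. In the other direction, Selenov, a selenoprotein, was well above background on all 4 sham arrays and on no core array, and was at least 6.57-fold lower in core. For Tmprss7 the bound was at least 2.2-fold and for Oacyl at least 1.43-fold, the latter with no call against healthy cortex (log2 −1.09, adjusted p = 0.125). Or52z14 and Npas4 were well above background on 3 and 2 of the 4 sham arrays, with bounds of at least 1.02-fold and at least 1.23-fold. Or52z14 was not called against healthy cortex (log2 −0.35, adjusted p = 0.624), and with normexp correction none of these decreases, from Selenov to Npas4, reached 2-fold (−0.48 to −0.13).

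Macrophage and phagocyte genes rose almost as a block. Of 13 monocyte and macrophage markers tested, 12 rose and 0 fell (median log2 difference 2.47). Besides Cd68, Cd14, a coreceptor for bacterial lipopolysaccharide, rose 28.6-fold, Lyz2, the lysozyme of myeloid cells, 20.6-fold, and Fcgr1a, the high-affinity receptor for IgG, 14.1-fold. Ccr2, the receptor for Ccl2 on monocytes, was well above background on 3 core arrays and no sham array, and rose at least 3.0-fold. Arg1, Mrc1 and Adgre1 rose 5.47-fold, 3.23-fold and 5.56-fold. Cd163, a scavenger receptor for hemoglobin, reached 2.00-fold and was not called. The summed level of the list monocytes and macrophages, as the mean log2 signal of its genes, was 10.11, 9.80, 8.81 and 9.21 in core and 6.25 to 6.81 in sham, with core pool 11 again the lowest of core.

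Genes on the list for microglia in their resting state were also higher. Of 10 genes tested, 7 rose and 0 fell, with a median log2 difference of 1.59. Aif1, the calcium-binding protein Iba1, read 14.14, 13.61, 13.19 and 13.78 in core and 10.36, 10.60, 11.13 and 10.57 in sham, an 8.09-fold rise (adjusted p = 2.58e-10). Cx3cr1, the receptor for neuronal fractalkine, rose 4.66-fold and Csf1r, the receptor that keeps microglia alive, 4.20-fold. P2ry12, a purine receptor that in cortex marks microglia rather than blood macrophages, read 12.49, 11.88, 12.29 and 12.19 against 10.16, 10.71, 11.08 and 10.62, and rose 2.97-fold (adjusted p = 4.2e-05). Sall1, a microglial transcription factor, rose 2.35-fold. Tmem119 was 1.30-fold and Selplg 1.24-fold of sham, below the limit of a call. Siglech and Gpr34 had no named probe. The part of macrophages, whose list rose as well, in the rises of this list was not tested.

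The machinery with which phagocytes sense, bind and kill followed. In the pattern recognition list, 16 of 18 genes rose and 0 fell, among them the inflammasome adaptor Pycard (14.8-fold), Nlrp3 (7.47-fold, with 3 of 4 sham arrays well above background), Casp1 (6.76-fold), Tlr1 (10.2-fold), Tlr2 (7.77-fold) and Tlr4 (5.79-fold). Tlr5 and Tlr9 were at 0.343 and 0.502 of sham and were not called. Tlr1 had no call with normexp correction (log2 0.93). Of 16 genes for Fc receptors and the uptake of dead cells, 11 rose: Fcgr3a 18.5-fold, the integrin chain Itgb2 13.9-fold, the kinase Syk 12.5-fold and the adaptor Tyrobp 12.3-fold. Mfge8, which bridges dying cells to phagocytes, went the other way, to 0.484 of sham. Its call was lost without core pool 12 (log2 −0.95) and without sham pool 16 (−0.93). Of 8 genes of the phagocyte NADPH oxidase, which makes superoxide, 7 rose and 0 fell, with the highest median of all lists (log2 4.11). Its cytosolic subunits Ncf1 and Ncf4 rose 45.6-fold and 24.9-fold, and the membrane subunit Cyba 14.3-fold. Ncf1 read 12.36, 12.41, 10.93 and 11.92 in core and 6.17, 6.10, 7.02 and 6.28 in sham.

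Antigen presentation and complement rose together with them. All 9 MHC class II genes tested rose (median log2 difference 3.64), with RT1-Da at 23.2-fold, RT1-Db1 at 21.4-fold, RT1-Ba at at least 14.8-fold and the invariant chain Cd74 at 15.0-fold. Cd74 read 13.21, 13.16, 11.82 and 13.11 in core and 8.60, 8.54, 9.59 and 8.92 in sham, with no overlap. RT1 genes are close relatives of each other and their probes may share signal. In the complement list, 15 of 18 genes rose and 0 fell. The receptors for the fragments of C5 and C3, C5ar1 and C3ar1, rose 33.6-fold and 11.8-fold, and the C1q chains C1qa, C1qb and C1qc 5.04-fold, 5.72-fold and 8.82-fold. C6, part of the pore that complement forms, rose 12.2-fold. C3 itself rose 2.98-fold, and the regulator Serping1 3.77-fold, while Cfb (1.51-fold), Cfi and Cd55 were not called.

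Genes that handle engulfed lipid were among those with the widest differences. Of 18 genes for the uptake and export of lipid, 16 rose and 0 fell, with a median log2 difference of 2.41. The scavenger receptors Msr1 and Cd36 rose at least 30.7-fold and 16.6-fold, with Cd36 well above background on 3 of the 4 sham arrays. Trem2, a lipid-sensing receptor of microglia and macrophages, read 14.95, 14.73, 14.06 and 14.89 in core and 11.07, 11.08, 11.77 and 11.28 in sham, and rose 10.3-fold (log2 3.36, SE 0.30, adjusted p = 2.28e-10). Apoc1, an apolipoprotein, rose 16.4-fold, and the cholesterol pump Abca1 11.0-fold. Nr1h3, the sterol-sensing receptor LXR alpha that controls Abca1, rose 4.34-fold. Of 24 lysosomal genes, 17 rose and 0 fell. They included Atp6v0d2, a subunit of the proton pump (at least 12.3-fold), the protease Ctsz (16.1-fold), progranulin, Grn (9.46-fold), the sterol carrier Npc2 (4.89-fold) and the lipase Lipa (4.34-fold). Psap, Gaa and Lamp1 were at 1.19-fold, 1.45-fold and 1.67-fold. Genes that make cholesterol did not follow. Of 17, only Ebp rose (2.20-fold) and Hmgcs1 and Insig1 fell, to 0.422 and 0.459 of sham, with a median log2 difference of −0.69. That is 5.88% higher, against 15.7% of all genes, and 11.8% lower, near the 10.2% of all genes. Hmgcs1, an early enzyme of the pathway, read 11.91, 11.92, 12.54 and 11.97 in core and 13.51, 13.41, 13.09 and 13.30 in sham. The call of Ebp was lost without core pool 12 (log2 0.94), and 4 genes of the list fell without core pool 11 or without sham pool 15. Without core pools 10 and 12 together, 1 gene of the list fell and Insig1 was not called (−0.97).

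Chemokines and their receptors differed by member. Of 25 chemokines, 13 rose and 2 fell. Ccl7, close to Ccl2 in sequence and function, rose 132-fold (well above background on 2 of the 4 sham arrays), Ccl3 44.8-fold, Cxcl1, which draws neutrophils, 35.0-fold (1 of 4 sham arrays), and Ccl6 22.4-fold. Cx3cl1, the fractalkine of neurons, was the clearest decrease, with 14.82, 15.05, 16.04 and 15.18 in core and 16.99, 16.88, 16.83 and 16.94 in sham (0.321, adjusted p = 3.79e-08). Its receptor Cx3cr1 rose, as given above. Ccl22 was at 0.478 of sham, and that call was lost without core pool 11 (log2 −0.94) and without sham pool 14 (−0.90), against healthy cortex (−0.83), with array weights (−0.91), with normexp correction (−0.19) and for the mean of its probes (−0.42, adjusted p = 0.418). Among 16 receptors, 10 rose and 1 fell. Ccr1 rose 10.9-fold and Cxcr1 9.89-fold, each well above background on 1 of 4 sham arrays, and Cxcr4, which binds Cxcl12, rose 8.91-fold. Ackr2, a decoy receptor, fell to 0.258 and was well above background on 1 of 4 core arrays. Cxcl12 was at 0.614 and not called. With normexp correction, 7 chemokines rose and 1 fell, and 3 receptors rose.

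Of 27 cytokines and growth factors, 11 rose and 2 fell. The interleukin-1 receptor antagonist Il1rn rose 20.4-fold, Il1b itself 10.9-fold, and Igf1, a growth factor that activated microglia and macrophages make, rose 16.5-fold. Igf1 read 14.31, 14.09, 13.13 and 13.74 in core and 9.46, 9.75, 10.14 and 9.75 in sham (adjusted p = 1.83e-10). Tgfb1 rose 9.46-fold and Il18 6.79-fold. Il6 was well above background on no core or sham array at 3 d. The 2 decreases were Vegfa, to 0.47, and Bdnf, the neurotrophin, to 0.361. Vegfa lost its call without core pool 9 (log2 −0.89) and without sham pool 15 (−0.96), and Bdnf without any of core pools 9, 10 and 12 or sham pools 13, 14 and 16 (−1.47 to −1.30). Vegfa was also not called against healthy cortex (−0.93) or with normexp correction (−0.85), and Bdnf not with normexp correction (−0.69).

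Markers of neutrophils and lymphocytes were higher as well. Of 9 neutrophil markers tested, 7 rose and 0 fell. S100a8 and S100a9, which form calprotectin, rose 16.4-fold and 12.2-fold. S100a8 read 9.37, 10.41, 6.56 and 7.96 in core and 3.88, 4.12, 6.44 and 3.72 in sham, so that the highest sham array (pool 15) came close to the lowest core array (pool 11). Mmp8, the collagenase of neutrophils, was well above background on 2 of 4 core arrays and rose at least 3.28-fold, and Lcn2, which reactive astrocytes make too, 48.3-fold. Mpo and Ltf had no named probe and Elane was at 0.856. Of 12 markers of T and NK cells, 8 rose and 0 fell. Cd8b rose 49.2-fold, Cd3g, part of the T cell receptor complex, 6.40-fold, Cd2 at least 4.21-fold and the pore-forming Prf1 at least 3.11-fold. Cd3d (1.80-fold), Lck (1.11-fold) and Gzmb (1.19-fold) were not called. All 3 B cell genes tested, of 8 listed, rose: Blnk 6.64-fold, Fcrla 3.71-fold and Cd79b at least 2.01-fold, the last without a call when core pool 9 (log2 0.93), sham pool 13 (1.1) or sham pool 16 (0.96) was left out. Cd79a and Ms4a1 were not tested, and Blnk is not confined to B cells. A probe could pass the filters through the core arrays alone, so 3 of 3 is not a share of all 8 markers. The part of the filters in this count was not tested. With normexp background correction, which compresses dim signals, 3 neutrophil, 2 T and NK cell and 1 B cell marker rose.

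Reactive astrocyte markers rose and few resting ones were called. Of 12 genes of reactive astrocytes, 10 rose and 0 fell (median log2 difference 3.41). Gfap, the intermediate filament of reactive astrocytes, read 12.13, 11.71, 11.89 and 11.79 in core and 8.42, 8.07, 9.45 and 9.72 in sham, a 7.81-fold rise (adjusted p = 4e-07). Vim and Nes, which encode further intermediate filaments, rose 10.2-fold and 11.1-fold, Cd44, a hyaluronan receptor, 37.6-fold, Serpina3n 24.1-fold and Hspb1, a small heat shock protein, 14.3-fold. Several of these are also expressed by macrophages and vessel cells. Of 12 genes of resting astrocytes, 2 fell (16.7%, against 10.2% of all genes) and 0 rose: Gjb6, a gap junction protein, to 0.342 and Aldoc, an aldolase, to 0.408. Aqp4, the water channel of astrocyte endfeet, was at 1.21-fold with overlapping arrays, and the glutamate transporters Slc1a2 and Slc1a3 were at 0.615 and 0.717. S100b was at 0.312 without a call, and was called without sham pool 15 (log2 −2.35) or core pool 9 (−2.06).

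Cell cycle genes rose almost without exception. Of 28 genes tested, 26 rose, 0 fell, and only the cyclins Ccne1 and Ccne2 were not called. The median log2 difference was 3.46. Cdk1, the kinase that drives entry into mitosis, read 12.42, 12.12, 11.06 and 12.22 in core and 5.22, 5.5, 6.90 and 6.66 in sham (59.2-fold, log2 5.89, SE 0.67, adjusted p = 9.97e-09). Top2a, the topoisomerase that untangles chromosomes, read 10.35, 9.82, 8.81 and 10.05 against 3.60, 3.56, 4.66 and 4.51, a 51.1-fold rise. Ccnb2, a mitotic cyclin, rose 18.4-fold. Of further mitotic genes, Bub1b rose 54.9-fold (3 of 4 sham arrays well above background) and Cenpa at least 20.8-fold. Of genes of DNA replication, Pcna rose 3.07-fold, Mcm4 2.71-fold and Mcm7 2.49-fold. The 2 sets of examples were not tested against each other. In each of the 26 genes the 4 core arrays lay above the 4 sham arrays, as most called genes do not overlap (2653 of 3132).

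Promoters of 23 of the 30 listed cell cycle genes were in the RefSeq table (build GRCr8), each from 250 bases before to 50 bases after the start. The letters CCAAT, on either strand, occurred in 16 of them (69.6%) and in 37.5% of all 33469 promoters, and TTTGAA in 10 (43.5%) against 18.3%. CCAAT is the letters bound by the factor NF-Y, and TTTGAA is the core of the cell cycle homology region, which repressor complexes bind in resting cells. The 150 bases before the start are shown for 3 of the mitotic genes above because each holds both motifs, in capitals on whichever strand they lie. On the other strand CCAAT reads as ATTGG and the second motif as TTCAAA. They lie at chr20:19265143-19265292 (plus strand) for Cdk1, chr10:84473094-84473243 (minus strand) for Top2a and chr8:79981659-79981808 (minus strand) for Ccnb2.
Cdk1: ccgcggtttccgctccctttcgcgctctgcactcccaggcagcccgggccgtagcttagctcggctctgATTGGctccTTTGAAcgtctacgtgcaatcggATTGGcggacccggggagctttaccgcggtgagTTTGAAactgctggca
Top2a: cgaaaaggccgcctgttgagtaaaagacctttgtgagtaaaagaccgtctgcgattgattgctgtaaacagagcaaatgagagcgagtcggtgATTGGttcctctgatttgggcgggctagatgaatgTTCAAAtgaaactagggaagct
Ccnb2: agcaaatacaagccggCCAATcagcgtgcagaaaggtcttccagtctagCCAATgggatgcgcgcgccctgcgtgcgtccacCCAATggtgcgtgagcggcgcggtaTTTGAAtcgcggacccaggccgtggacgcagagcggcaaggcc
These matches describe the sequence and were not tested against the array values.

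Interferon response genes rose in most cases. Of 23 genes, 17 rose and 0 fell, with a median log2 difference of 1.61, and 11 rose with normexp correction. Ifitm1, a membrane protein that blocks virus entry, rose 25.9-fold, and Psmb8 and Psmb9, subunits of the immunoproteasome, 8.90-fold and 7.71-fold. Mx1 rose 8.79-fold, with 1 of 4 sham arrays well above background, and had no call with normexp correction (log2 0.42). Gbp2, a guanylate-binding protein induced by interferon, read 11.58, 11.37, 10.52 and 11.31 in core and 7.91, 8.18, 8.75 and 8.49 in sham, a 7.27-fold rise (adjusted p = 4.32e-08). Stat2 (1.52-fold) was not called, and Ifit1 was near background in both groups. In the promoters of 16 listed genes found in the table, GAAANNGAA, the repeat that interferon regulatory factors bind, occurred in 9 (56.2%), against 9.71% of all promoters. The promoter of Gbp2 is shown as an example, from chr2:234005577-234005726 on the plus strand, with the motif in capitals as it reads on the other strand.
Gbp2: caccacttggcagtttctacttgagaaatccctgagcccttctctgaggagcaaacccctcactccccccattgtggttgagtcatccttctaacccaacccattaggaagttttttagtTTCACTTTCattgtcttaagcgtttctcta
In 5 of 20 lysosomal promoters (25%) the letters CACGTG occurred, against 6.42% of all promoters. Of the 14 called lysosomal genes with a promoter in the table, 2 held these letters.

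Matrix and vessel genes rose in part. Of 23 extracellular matrix genes, 16 rose and 2 fell. Besides Spp1, Tgfbi rose 11.9-fold, Tnc, a matrix protein of injured tissue, 11.1-fold, fibronectin, Fn1, 7.05-fold and Postn 6.59-fold. The decreases were the lecticans of perineuronal matrix Acan (0.326) and Bcan (0.481). Acan was well above background on 2 of 4 core arrays and lost its call without core pool 9 (log2 −1.18), and Bcan without core pool 9 (−1.0), core pool 10 (−0.91) or sham pool 16 (−0.98). Of 19 metalloproteinases and inhibitors, 11 rose and 0 fell, with Mmp19 at 20.2-fold (1 of 4 sham arrays well above background), the inhibitor Timp1 at 15.8-fold and Mmp9 at 3.23-fold. Mmp19 had no call with normexp correction (log2 0.54). In the list of meninges and fibroblasts, 6 of 11 genes rose and 2 fell. Col3a1 rose 4.98-fold, Lum 4.11-fold and Col1a1 2.97-fold, while Igf2 and Slc22a6, both expressed in the meninges, fell to 0.389 and 0.388. Slc22a6 lost its call with slide as a block (log2 −1.09, adjusted p = 0.0652), with array weights (−0.93), with normexp correction (−0.23) and without core pools 10 and 12 (−1.29). For Col1a1 the core arrays read 13.75, 13.68, 12.07 and 11.78, and the sham array of pool 15 (11.80) lay above the lowest of them. The mean level of this list was 8.96 to 10.07 in sham and 9.38 to 10.46 in core. Sham pool 15 was the highest sham array for this list and also for pericytes and smooth muscle (8.82, against 7.95 to 8.11), and the part of meninges in the pieces was not tested.

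Of 13 endothelial genes, 2 rose, Vwf 3.49-fold and Tie1 3.04-fold, a share of 15.4% that is near the 15.7% of all genes. Cldn5, the tight junction protein of brain endothelium, read 11.84, 12.02, 11.75 and 12.05 in core and 11.47, 11.55, 11.94 and 11.31 in sham (1.27-fold, adjusted p = 0.187). Without core pool 11, or without sham pool 15, 4 endothelial genes rose, Pecam1 among them (log2 1.09 and 1.24). Pecam1 was also called without core pool 10 (1.02), where 3 genes rose. Pericyte and smooth muscle genes rose in 4 of 10 cases, namely Des, Kcnj8, Tagln and Pdgfrb (2.62-fold to 3.4-fold). In the blood-brain barrier list, the adhesion molecules Sele (7.41-fold, 2 of 4 sham arrays well above background) and Icam1 (4.80-fold) rose, Slco1c1, a thyroid hormone carrier, fell to 0.439, and 12 of 15 genes were not called. The shares were 13.3% higher and 6.67% lower, against 15.7% and 10.2% of all genes. Sele had no call with normexp correction (log2 0.56, adjusted p = 0.0834). Among 15 angiogenesis genes, 4 rose and 2 fell. Esm1, made by sprouting endothelium, rose 28.9-fold (well above background on 2 of 4 sham arrays), Eng 3.68-fold and Nrp1 2.07-fold, and Apln fell to 0.444. Angpt2 rose 2.26-fold with overlapping arrays, and 1 of its 3 tested probes was called. Its call was lost without sham pool 14 (log2 0.99), with normexp correction (0.99) and without core pools 10 and 12 (0.81).

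Neuronal genes fell, by less than the immune genes rose. Of 11 pan-neuronal markers, 6 fell, 0 rose, and all had a median log2 difference of −1.05 (range −1.59 to −0.64). Snap25, part of the complex that fuses synaptic vesicles, read 13.22, 13.58, 14.67 and 13.43 in core and 15.40, 15.23, 15.23 and 15.39 in sham, and fell to 0.333 (log2 −1.59, SE 0.21, adjusted p = 2.34e-07). Nefm, the middle neurofilament chain, fell to 0.364 and Map2, the dendritic microtubule protein, to 0.464, the latter not without sham pool 14 (log2 −0.97). Map2 was also not called against healthy cortex (−0.7, adjusted p = 0.0627) or for the mean of its probes (−0.99). Nefl fell to 0.446, with no call without core pool 9 (−0.99). Core pool 11 overlapped the sham arrays for Nefl, and its mean level of the neurons list was 11.94, against 10.94, 11.26 and 11.23 on the other core arrays and 12.26 to 12.48 in sham. Stmn2, Tubb3 and Nefh were at 0.644, 0.617 and 0.614 of sham and were not called. Rbfox3 had no named probe.

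Markers of excitatory and of inhibitory neurons moved alike in direction. Of 9 excitatory markers 3 fell: Camk2a to 0.318, Nrgn, a postsynaptic calmodulin-binding protein, to 0.371, and Neurod6 to 0.463. Slc17a7, the vesicular glutamate transporter of cortical neurons, was at 0.531 and was called only without core pool 11 (log2 −1.25) among the arrays left out singly, in which case 7 of the 9 genes fell. Neurod6 lost its call without core pool 9 (−0.97) or core pool 12 (−0.92). Of 9 markers of GABAergic interneurons 4 fell, namely Calb1 (0.271), Pvalb (0.325), Vip (0.423) and Gad2 (0.471), and 7 without core pool 11. Gad1, which makes GABA, was at 0.544 and not called, but was called without core pool 11 (−1.14) or sham pool 15 (−1.12).

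Receptors and release proteins of synapses fell widely. Of 32 subunits of glutamate and GABA receptors, 19 fell, 0 rose and all were below sham (log2 −1.63 to −0.36). The lowest were the NMDA receptor subunit Grin2a (0.324), the GABA-A subunit Gabrb2 (0.346) and the metabotropic receptor Grm7 (0.349). Grin2a read 6.38, 6.79, 8.19 and 6.99 in core and 8.63, 8.75, 8.82 and 8.64 in sham. Gria2, the AMPA receptor subunit that limits calcium entry, fell to 0.407. Of 23 genes of synaptic vesicle release, 15 fell and 0 rose, with a median log2 difference of −1.05. Slc17a6, the vesicular glutamate transporter typical of subcortical neurons, fell to 0.252, and Rims1, a scaffold of the release site, to 0.352. Without core pool 9, or without core pool 12, 9 of the 23 fell. With normexp correction, 8 receptor subunits and 8 vesicle release genes fell. In the axonal cytoskeleton list 7 of 16 fell and 0 rose, and 4 without core pool 9.

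Neuropeptides were mixed. Of 14 genes, 8 fell and 1 rose. Crh (0.222), Cartpt (0.242), a peptide of feeding and reward circuits, and Grp (0.316) fell the furthest. Trh, the precursor of thyrotropin-releasing hormone, rose 46.5-fold, with 8.93, 8.78, 6.51 and 8.31 in core and 2.10, 2.00, 3.54 and 2.72 in sham, where 2 of 4 arrays were well above background (adjusted p = 8.79e-08). Npy, Sst and Cck did not pass the filters.

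Immediate early genes, which neurons and other cells switch on within minutes of a stimulus, mostly stood below sham. Of 24 genes, 9 fell and 2 rose, with a median log2 difference of −0.41. Arc and the nuclear receptor Nr4a1 fell to 0.131 and 0.156, and the zinc finger factors Egr4 and Egr1 to 0.181 and 0.258. Dusp1, a phosphatase that switches off MAP kinases, read 6.80, 7.03, 8.18 and 6.40 in core and 9.54, 9.40, 8.57 and 8.91 in sham, and fell to 0.25 (adjusted p = 0.000627). The 2 that rose were Fosl1 (25.6-fold, well above background on 2 of 4 sham arrays) and Atf3 (17.3-fold), both stress-responsive members of the AP-1 and ATF families. Fos itself was at 0.682 and Jun at 1.15-fold, without a call. The call of Npas4 was lost without any of core pools 9, 10 and 12 or sham pools 13, 14 and 16 (log2 −2.23 to −1.56). TGACGTCA, the full site of the factor CREB, occurred in 4 of the 18 listed promoters in the table (22.2%) and in 1.83% of all. Dusp1 was the only called gene among the 4, and its promoter is shown for that reason, from chr10:17184703-17184852 on the plus strand with the site in capitals.
Dusp1: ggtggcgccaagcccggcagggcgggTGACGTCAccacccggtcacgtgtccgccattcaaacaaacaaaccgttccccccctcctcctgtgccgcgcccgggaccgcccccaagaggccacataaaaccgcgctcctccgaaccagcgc
The other 3 genes with the letters were Ier2, Jund and Btg2, at 1.16-fold, 0.794 and 0.791 of sham.

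Oligodendrocyte genes had a share of decreases near that of all genes. Of 11 myelin and oligodendrocyte markers, 1 fell (Mal, to 0.413), which is 9.09% against 10.2% of all genes. None rose, against 15.7% of all genes. The median log2 difference was −0.23, against −0.17 for all genes. Mbp, the myelin basic protein, read 12.56, 12.53, 13.34 and 12.35 in core and 13.31, 13.39, 12.76 and 12.89 in sham, with overlap and an adjusted p of 0.245. Opalin was at 0.567 without a call, and with one without core pool 11 (log2 −1.10). Among 8 markers of progenitors only Neu4 fell (0.483), a share of 12.5%, and not without core pool 9 (−0.94), core pool 10 (−0.92) or sham pool 15 (−0.99). Pdgfra was 1.75-fold of sham and was called without core pool 11 (1.04). Cspg5, at 0.571, was called without core pool 11 as well (−1.04).

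Stress lists differed in their share of calls, from 21.4% higher for hypoxia response to 58.8% for p53 and cell death, against 15.7% of all genes. In the heat shock list, 4 of 14 genes rose and 0 fell: Hspb1, the cochaperone Bag3 (2.92-fold), Hspa1a (2.78-fold) and Hspa1b (2.23-fold, with no call without core pool 12, log2 0.92). Hspa1a and Hspa1b are near-identical copies and their probes may share signal. In the oxidative stress list, 6 of 15 rose. Hmox1, the heme oxygenase, read 13.01, 13.26, 11.27 and 12.08 in core and 6.70, 6.69, 8.39 and 7.36 in sham, and rose 34.8-fold, and the metallothioneins Mt1 and Mt2A rose 6.99-fold and 5.13-fold. Among 13 genes of iron handling, 5 rose, including the phagosomal metal pump Slc11a1 (13.1-fold) and the ferritin light chain Ftl1 (3.98-fold). Of 14 hypoxia response genes, 3 rose and 1, Vegfa, fell. Hk2, a hexokinase, rose 4.45-fold (2 of 4 sham arrays well above background), Adm 3.33-fold and Lox 2.26-fold. Hk2 had no call with normexp correction (log2 0.31). Lox lost its call without core pool 9 (log2 0.99), core pool 10 (0.86), sham pool 13 (1.10) or sham pool 14 (1.04). Cell death genes rose in 10 of 17 cases with 0 decreases. Ripk3, the kinase of necroptosis, rose 26.4-fold, the survival factor Bcl2a1 of myeloid cells 26.8-fold (1 of 4 sham arrays well above background), Fas 6.07-fold and Casp8 5.06-fold, while Bax (1.54-fold) was not called. Of 5 reference genes tested, Rplp0 and Actb rose, 2.93-fold and 2.10-fold, and Ppia and Hprt1 were not called. Another 5 of the 10 listed did not pass the filters, which drop genes of even level. Actb had no call without the probe filter (log2 0.9) or in the authors' normalized values (0.94).

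Core pools 10 and 12 were each high in transcripts known from another tissue. In core pool 12 the mean level of choroid plexus and ependyma markers was 8.93, against 3.68 to 4.17 on the other core arrays and 4.29 to 4.69 in sham. Ttr, the transthyretin of choroid plexus, read 14.71 there and 0.91, 1.21 and 3.85 on the other core arrays, with 4.12 to 5.61 in sham. Of the 7 markers tested, Foxj1 and Folr1 were called. Foxj1, a factor of ciliated cells, rose 4.30-fold, and its log2 difference fell from 2.10 to 1.59 without core pool 12, still called. Folr1 in core against sham at 3 d rose 3.74-fold (log2 1.90) and was not called without core pool 12 (log2 1.25, adjusted p = 0.0878). In core pool 10 the red blood cell markers had a mean level of 11.25, against 7.85 to 8.80 on the other core arrays and 7.82 to 8.99 in sham, and 0 of the 5 tested were called. Slc4a1, the anion exchanger of red blood cells, was 2.45-fold of sham, and was called without core pool 11 (log2 1.74) or core pool 12 (1.80). Without core pools 10 and 12 together, 3 of the pan-neuronal markers fell in place of 6, 5 vesicle release genes in place of 15, 3 axonal cytoskeleton genes in place of 7 and 0 oligodendrocyte markers in place of 1, and 21 named genes lost their call. The median of the list monocytes and macrophages was then log2 2.92, that of the list cell cycle 3.27 and that of the list glutamate and GABA receptors −0.91. The part of choroid plexus or blood in other results was not tested.

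**Figure D3:**
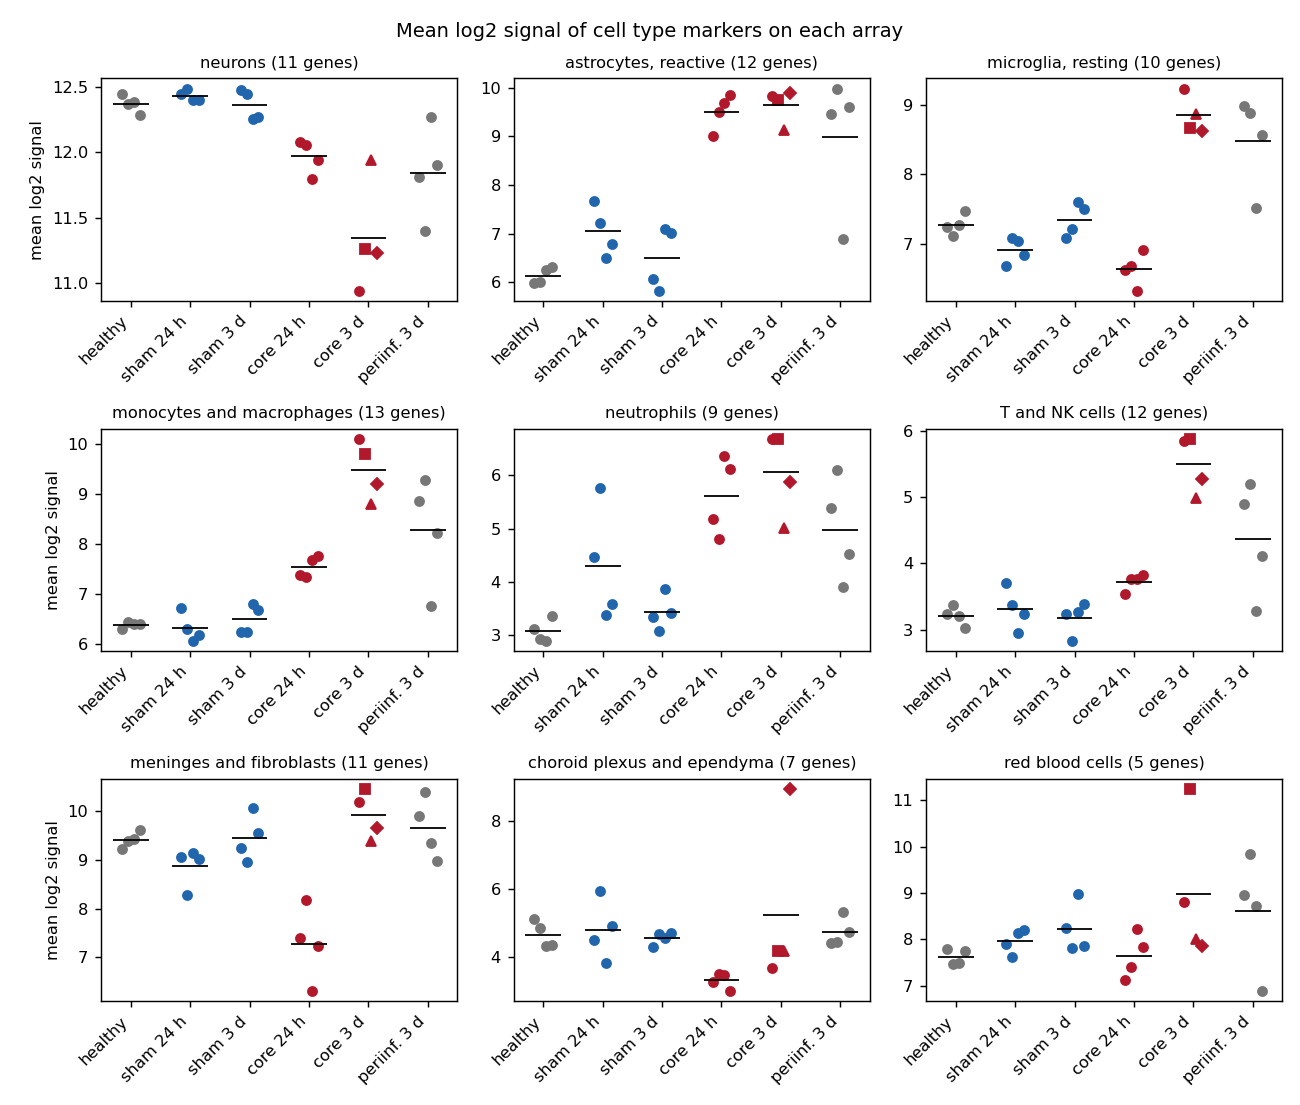
Mean log2 normalized signal of 9 marker lists on each array of healthy, sham, core and periinfarct cortex (points are arrays, black lines group means, core at 3 d with 1 symbol per pool as before). Core arrays at 3 d lie apart from sham for neurons, reactive astrocytes, microglia, macrophages, neutrophils and T and NK cells, while pool 12 (diamond) stands alone for choroid plexus and pool 10 (square) for red blood cells.

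The difference between core and sham was then set against the same difference at 24 h, with other rats in both groups. At 24 h, 925 genes were higher in core (7.65%) and 353 lower (2.92%). Of the 1899 genes higher at 3 d, 617 were also higher at 24 h, which is 32.5% of the former and 66.7% of the latter. Of the 1233 lower at 3 d, 185 were lower at 24 h (15% and 52.4%). Only 9 genes were lower at 24 h and higher at 3 d, and 4 the reverse. The change of the difference was tested directly in the same model. It was greater at 3 d, that is more toward core, for 1054 genes (8.72%) and smaller for 411 (3.4%). Without core pool 11 the 2 counts together rose from 1465 to 2328.

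Phagocyte and cell division lists moved further from 24 h to 3 d. Of the 28 cell cycle genes, 11 were higher at 24 h and 26 at 3 d, and the difference grew for 16. Ccnb2 was 1.37-fold of sham at 24 h and 18.4-fold at 3 d (log2 change 3.74, SE 0.64, adjusted p = 0.000131). For Cdk1 the folds were 7.52 and 59.2. For 8 of 10 microglial genes the difference grew. The list had a median of log2 −0.3 at 24 h, when P2ry13 and Selplg were lower in core (0.385 and 0.452), and 1.59 at 3 d. P2ry12 read 9.91, 9.86, 9.22 and 9.14 in core and 10.66, 10.30, 10.60 and 10.32 in sham at 24 h, where core lay below sham on every array without a call (0.522), and its difference grew by log2 2.51 (adjusted p = 0.000101). Lipid genes grew in 11 of 18 cases and lysosomal genes in 14 of 24. Trem2 was at 0.949 of sham at 24 h and Apoc1 at 0.643, before their 10.3-fold and 16.4-fold rises, and Igf1 went from 1.23-fold to 16.5-fold (log2 change 3.74, adjusted p = 4.26e-06).

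The naming rule picked Fabp4, Cd8a, Siglec1, Fcnb and Mmp7 for the change toward core, all called. Except for Fcnb (log2 5.59), these were well above background on no sham array at 3 d, so the sizes of their changes are not measured and have no order. Siglec1, the sialoadhesin of macrophages, was well above background on all core arrays at 3 d and at 0.61 to 1.21 on those at 24 h. Fcnb, ficolin-B, read 11.37, 11.41, 10.64 and 11.59 in core at 3 d and 6.00, 5.99, 6.46 and 5.64 at 24 h. Fibroblast genes turned from lower to higher by the median. At 24 h, 7 of 11 were lower in core (median log2 −1.59), and 7 had a greater difference at 3 d. Col1a1 went from 0.35 to 2.97-fold, and Ogn, a small proteoglycan of meninges, from 0.10 to 0.507.

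**Figure D4:**
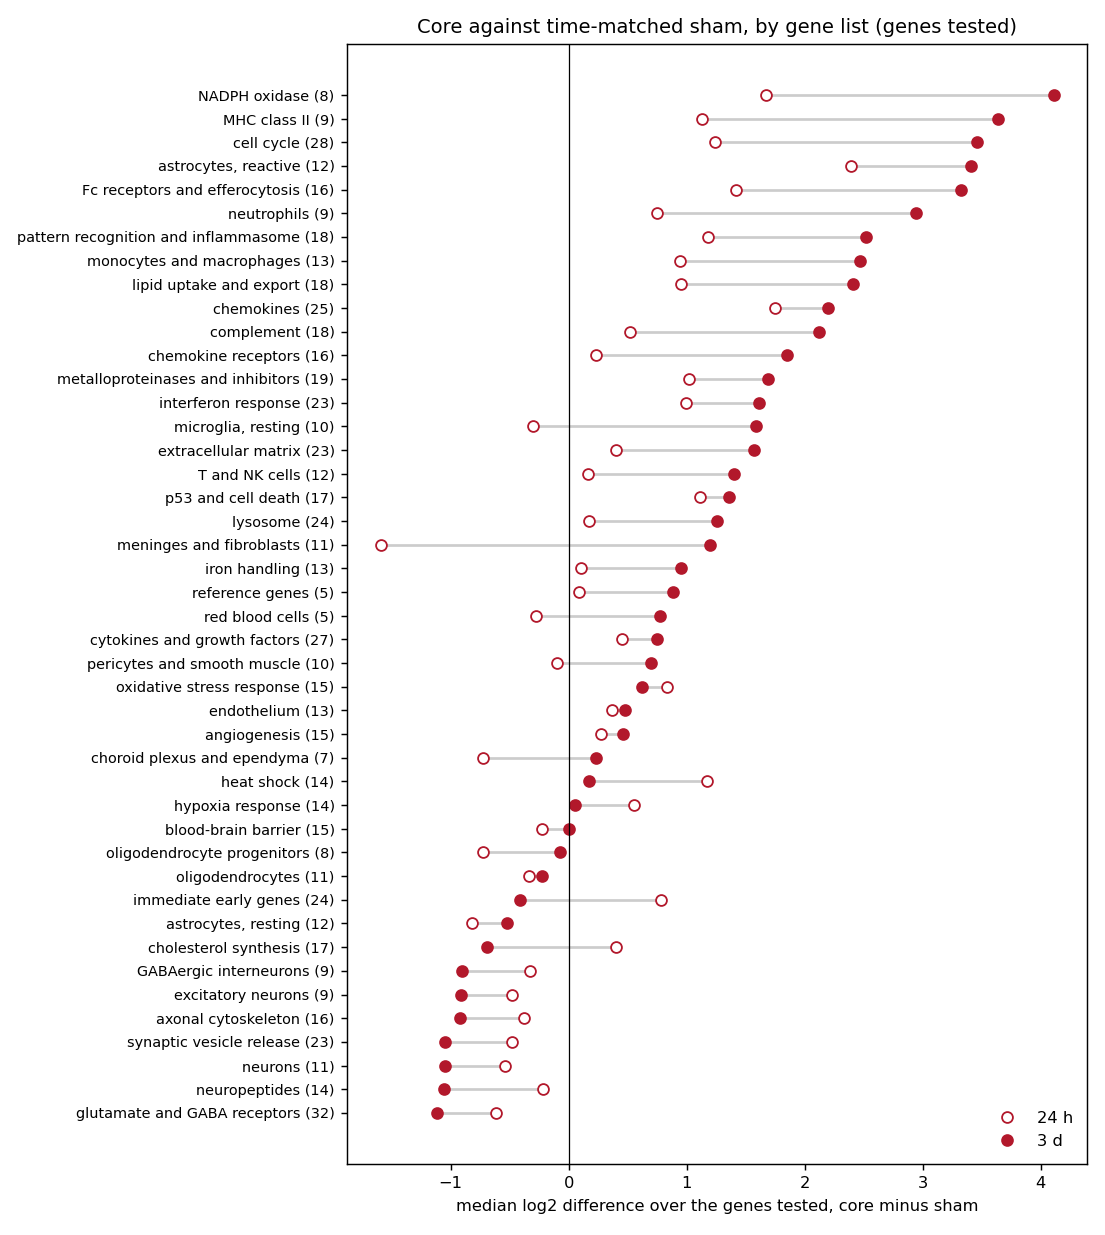
Median log2 difference of core minus sham over the tested genes of each list, at 24 h (open circles) and 3 d (filled circles), with the number of genes in parentheses. The median of microglia moved from −0.3 to 1.59, that of cell cycle genes from 1.24 to 3.46, and those of immediate early genes (0.78 to −0.41) and cholesterol synthesis (0.4 to −0.69) crossed zero downward.

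Other lists moved back toward sham or past it. Of 14 heat shock genes, 7 had a smaller difference at 3 d. Hspa1a read 11.88, 11.95, 11.96 and 12.31 in core and 4.87, 5.83, 6.13 and 6.04 in sham at 24 h (79.2-fold), and was 2.78-fold at 3 d (log2 change −4.83, adjusted p = 1.05e-06). Hspa1b went from 57.0-fold to 2.23-fold. LOC689410 went from 17.9-fold to 0.909 (log2 change −4.30). Npas4, a neuronal activity factor, and Krt25 were also called in this direction, but were well above background on no core array at 3 d, so that no size is given. Of 24 immediate early genes, 9 were higher at 24 h and 9 had a smaller difference at 3 d, Fos among them (3.66-fold to 0.682). Of 17 cholesterol genes, 9 had a smaller difference, though none was called at 24 h: Msmo1 went from 1.69-fold to 0.509 and Insig1, a brake on sterol synthesis, from 1.66-fold to 0.459. Bdnf went from 3.16-fold to 0.361. Il6 was called higher in core at 24 h and was near background in both groups at 3 d. For synaptic and neuronal lists the decrease was deeper at 3 d by the median, but the change passed the test for 0 of 11 pan-neuronal markers, 3 of 23 vesicle release genes and 2 of 32 receptor subunits.

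**Figure D5:**
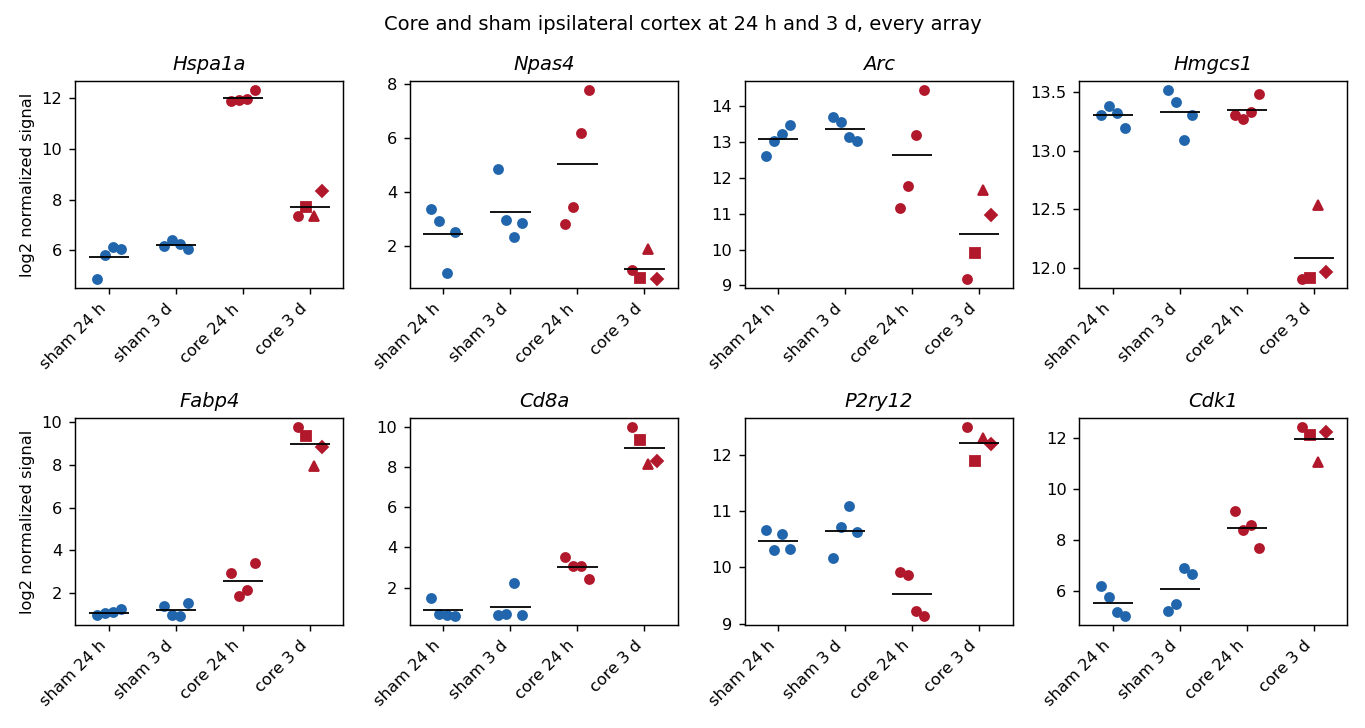
Log2 normalized signal of 8 genes on every sham (blue) and core (red) array at 24 h and 3 d, with group means as black lines. Hspa1a is near 12 in core at 24 h and between 7.36 and 8.33 at 3 d, while Fabp4, Cd8a and Cdk1 are at their highest in core at 3 d and P2ry12 turns from below to above sham.

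Core was last compared with periinfarct cortex at 3 d, whose pools carry the same numbers and were taken as the same rats. In the model of all 44 arrays without pairing, 554 genes were higher in core (4.58%) and 75 lower (0.621%). A fit of the core and periinfarct arrays alone called 0 genes, with 1425 at an unadjusted p below 0.05. With the pool number as a block in that smaller fit, 0 genes were called, with 2478 at an unadjusted p below 0.05. The calls were thus already absent before the block was added. With the pool as a random effect in the model of all 44 arrays, 755 were called, 654 of them higher in core. The macrophage level of periinfarct pool 11 was 6.76, within the 6.25 to 6.81 of sham, against 8.22 to 9.28 on the other periinfarct arrays (list monocytes and macrophages). Without it, 64 genes were called, without core pool 9 there were 152, without core pool 10 there were 323, without periinfarct pool 10 there were 1062 and without core pool 11 there were 1426. The values are therefore given as a description. The largest fitted differences were in Cd8a, 14.4-fold of periinfarct, Fabp4 (13.9-fold), Clec2d2l2 (10.3-fold), Hk3 (9.88-fold) and the protease Plau (8-fold). For Fabp4 the periinfarct arrays read 7.23, 7.80, 1.32 and 4.33, against 9.76, 9.34, 7.93 and 8.82 in core of the same pool numbers. In the unpaired model 15 of 28 cell cycle genes, 10 of 18 lipid genes and 7 of 8 NADPH oxidase genes were higher in core than in periinfarct, and 0 were lower. Those picked by the rule as lower than periinfarct (Arr3, Tmprss7, Acrv1, Selenov and Gabra6) were well above background on at most 1 core array, so no fold is given. The median of the neurons list against sham was log2 −0.39 in periinfarct and −1.05 in core, and 0 of its 11 genes differed between the areas in the unpaired test.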

How the data were processed

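RNA from pools of 3 rats was hybridised to 1-colour Agilent whole rat genome arrays, and the authors deposited the Feature Extraction output with intensity values (processed signal, spot median and background) and quality flags per spot. Their series table of log2 values was also deposited and served as an alternative. The number of spots and arrays, not read depth, limits precision. From the processed intensity, values were floored at 1, quantile normalized and taken to log2, flagged spots were removed, and spots of a probe were averaged. Probes were kept if 1 group or more had 75% of its arrays above the 20th percentile and 75% with detected signal, with a coefficient of variation above 2.5%, which drops genes of even level. A dim probe could thus enter through the group where it is high. Groups were compared with limma 3.58.1 in R 4.3.3 on all 44 arrays with Benjamini-Hochberg adjustment, tested on simulated data. Probes were named from RefSeq and the platform annotation. A gene is its brightest tested probe. Of 2397 genes with more than 1 tested probe, 379 had some probes called and others not. A bound compares the brighter group with the lowest well-detected signal. Named genes were the 12 largest changes in each direction among called genes detected on all arrays of both groups, without overlap of core and sham. Added to these were the 5 largest bounds, the 5 largest changes between times and between areas, the 3 widest of each list with members of opposite direction, and defining markers. Further list members are examples chosen after their values were seen. The members, lists and named-gene rule were chosen with earlier results of these data known. Pools are separate rats, but the spread within a pool is not seen. Core and periinfarct pieces of the same pool number were taken to come from the same rats, which the labels do not state. The mean correlation of their deviations was −0.004 over 4 pairs. Alternatives covered background correction, scaling, filters, fold minimum, array weights, slide, controls and left-out arrays.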

Additional observations from a re-analysis of the deposited data

Results flagged for a closer look

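In groups of 4 arrays, a single array stood apart from the other 3 by Dixon's criterion in 38 of 460 groups tested, where chance gives about 1 in 20. On core arrays, pool 11 was the low one for Ccl2 (11.31), Ccl7 (9.38), Cd44 (10.38), Fcgr1a (11.42), Icam1 (9.09), Igsf6 (9.68), Il1rn (9.12), RT1-Db1 (9.54) and Ripk3 (9.77). It was the high one for Aldoc (13.63), Bdnf (7.03), Crh (6.38), Hmgcs1 (12.54), Slc17a7 (7.47) and Slc25a18 (10.33). Pool 9 was high for Hk2 (5.65), Psmb8 (11.06) and the B cell list (7.13), pool 10 for Acrv1 (0.87), and pool 12 for Clic6 (6.39) and the list choroid plexus and ependyma (8.93).

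On sham arrays, pool 15 was high for C5ar1 (6.42), Cd8a (2.21), Fas (6.19), Icam1 (8.35), Mt1 (11.09), Pdgfrb (9.72), S100a8 (6.44), S100a9 (6.57), Tagln (10.63), Vegfa (9.53), the list cytokines and growth factors (5.77) and the list p53 and cell death (6.7). Pool 16 was high for Ccr2 (1.18), Csf1r (8.91) and Mx1 (3.2), pool 13 low for Gabrb2 (5.64) and pool 14 low for Actb (13.76).

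The difference between core and sham changed from 24 h to 3 d by the test of that change for 1054 genes toward core and 411 toward sham. Genes picked by the naming rule had fitted log2 changes as follows. Toward core they were Fabp4 (6.26), Cd8a (5.74), Siglec1 (5.64), Fcnb (5.59) and Mmp7 (5.57), and toward sham Hspa1a (−4.83), Npas4 (−4.7), Hspa1b (−4.68), LOC689410 (−4.3) and Krt25 (−4.28). Fabp4, Cd8a, Siglec1 and Mmp7 were well above background on no sham array and Npas4 and Krt25 on no core array at 3 d, so their fitted changes are not exact sizes and have no order.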

How the results depend on the processing

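Leaving out 1 array at a time gave 2602 (without core pool 9) to 3988 (without core pool 11) called genes for core against sham at 3 d, 1095 to 2328 for the change between 24 h and 3 d, and 64 to 1426 for core against periinfarct, against 3132, 1465 and 629. Normexp background correction gave 1447, 760 and 256 genes, with 70.2% of the first higher in core against 60.6%. No fold minimum gave 6150, 2289 and 2349 genes, with 48.6% higher. Array weights gave 3002 for the change between times and 1225 for core against periinfarct. Leaving out core pool 11 and sham pool 15, chosen after seeing the data, gave 2556 for the change. Leaving out core pools 10 and 12, also chosen afterwards, gave 895 and 56. For core against periinfarct, the fit of the compared groups alone called 0 genes (1425 at an unadjusted p below 0.05). The replicate block by pool number, fitted on the same groups alone, called 0 (2478). No paired analysis was possible for core against sham because their pools share no number. Among named genes, 4 reversed sign, all of them without a call (Hbb was called with array weights, log2 1.96). Ttr went to −0.25 with slide as a block, −2.24 with array weights, −0.13 against healthy cortex and −2.56 without core pools 10 and 12, and from −2.95 to 1.65 with 1 array left out. Clic6 went to −0.11, Hbb to −0.08 and LOC689410 to 0.02 without core pools 10 and 12, and with 1 array left out they ranged from −0.01 to 1.8, −0.28 to 0.91 and −0.39 to 0.01. The causes were not tested. Normexp took the call from 46 named genes, and lowered list counts to 4 of 10 for microglia, 10 of 18 for pattern recognition, 5 of 9 for MHC class II, 6 increases for cytokines and 7 for metalloproteinases. The 46 included genes given above with a fold and not a bound. Among them were Ccr1 (log2 0.47), Cxcr1 (0.4), Cd3g (0.85), Fcrla (0.6), Lum (0.8), Tie1 (0.9), Hspa1a (0.89), Hspa1b (0.97), Ebp (0.99) and Folr1 (0.51). Decreases of this kind included Gabrb2 (−0.31), Grm7 (−0.59), Neurod6 (−0.9), Neu4 (−0.56), Mfge8 (−0.85), Acan (−0.23), Bcan (−0.93) and Ackr2 (−0.22).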
